A study of Mus musculus with 65 samples.

Results

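Mammary tumours were ranked by how much T-cell RNA they held, and the 12 T-cell-richest of 48 were set beside the 12 T-cell-poorest. The members were chosen by a score, the mean log2 level of Cd3e and Cd3g, which encode signalling chains of the T-cell receptor complex, and Cd8a, which encodes a chain of the co-receptor of cytotoxic T cells. The other 24 tumours lay between the groups, and 17 normal glands of the same series were left out. Because the arrays that chose the groups also gave the values compared, differences between the groups are described here with their spread and are not tested. Only the labels of the host mice, which the score did not use, were tested.

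All 48 tumours grew from p53-null mammary fragments of BALB/c donors, transplanted into inguinal fat pads of female BALB/c hosts whose own mammary epithelium had been removed at 3 weeks of age. The hosts carried both copies of Tgfb1 or were Tgfb1 heterozygotes, and were irradiated or sham-irradiated 3 days before the transplant. That made 4 groups, with 9 tumours from sham wild-type, 23 from irradiated wild-type, 6 from sham heterozygous and 10 from irradiated heterozygous hosts. The titles number the tumours as repeats within each host group and do not say whether each came from a different mouse. Tests of the host labels took each tumour as a separate unit. Only the host was irradiated and carried the Tgfb1 genotype, while the transplanted epithelium was the same in all groups. The sources used here do not give the dose or the age at harvest. RNA came from pieces of frozen tumour, so fewer cells of a type and less RNA per cell cannot be told apart.

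T cells enter a tumour from blood vessels, which display adhesion molecules such as Vcam1 and Icam1, and follow chemokines such as Cxcl9 and Cxcl10 through the receptor Cxcr3. Activated T cells release interferon gamma, which induces those chemokines, the proteins that load peptides on MHC class I, and, through Ciita, MHC class II. B cells, macrophages and dendritic cells are known to present antigen to T cells and often share tissue with them. TGF-beta, encoded in part by Tgfb1, restrains T cells.

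The score ran from 5.04 to 7.81 over the 48 tumours, with a median of 5.69. The high group spanned 6.08 to 7.81 (mean 6.47 ± 0.51 SD, n = 12) and the low group 5.04 to 5.41 (5.31 ± 0.11, n = 12). The last tumour inside the high group scored 6.08 and the first outside it 6.01, and at the other end the values were 5.41 inside and 5.43 outside, so both borders ran through closely spaced values. At the top 2 tumours stood clear of the others, irradiated wild-type-host tumour 6 at 7.81 and irradiated wild-type-host tumour 16 at 7.14, with the next at 6.45.

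Cd3g set most of this order. Its level was 6.69 ± 1.02 in the high group and 4.40 ± 0.18 in the low group, a difference of 2.29, against 0.61 for Cd3e (6.64 and 6.03) and 0.59 for Cd8a (6.08 and 5.50). These values chose the groups and are no result. Among 4 other probe sets for Cd8a, which were not used, the difference was 0.14, 0.38, 0.82 and 0.85. When the score was taken without Cd3g, 10 of the 12 high tumours but only 6 of the 12 low tumours kept their place, so membership of the T-cell-poor group hung more on Cd3g. The low-group mean of Cd3g lay under 5.14, the log2 level of the filter used below. Without Cd3e the numbers were 11 and 12, and without Cd8a 12 and 11.

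**Figure D1:**
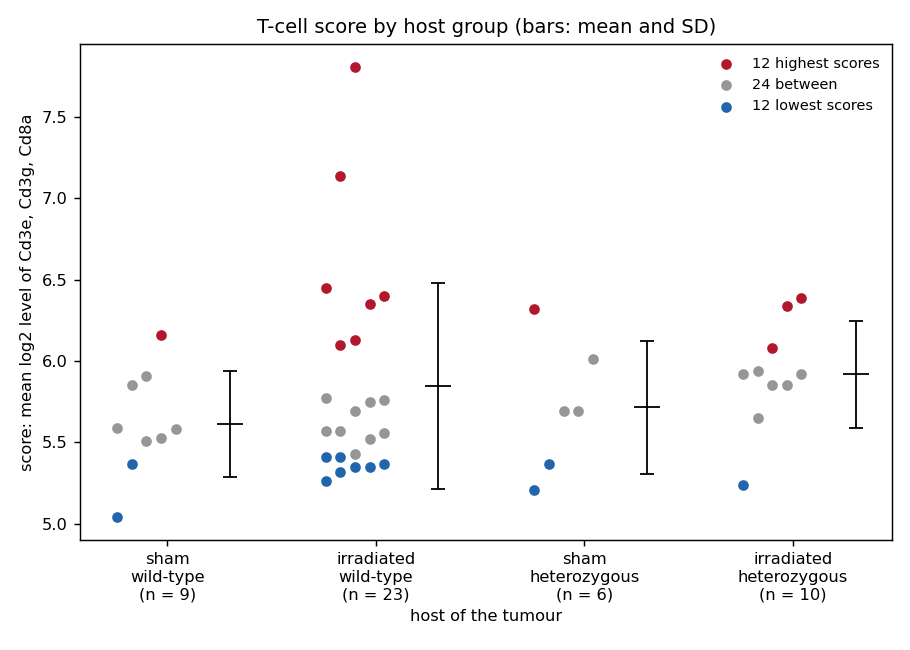
The score (y axis, mean log2 level of Cd3e, Cd3g and Cd8a) of each of the 48 tumours by host group (x axis), with the 12 highest in red and the 12 lowest in blue, and each group's mean and SD as black bars. Both colours occur in all 4 host groups, whose means lie between 5.62 and 5.92.

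The T-cell-rich and T-cell-poor tumours were spread over all 4 host groups. The score averaged 5.62 ± 0.33 (SD, n = 9; lowest 5.04, median 5.58, highest 6.16) in tumours of sham wild-type hosts, with 1 high and 2 low tumours. In irradiated wild-type hosts it averaged 5.85 ± 0.64 (n = 23; 5.26, 5.57 and 7.81), with 7 high and 7 low tumours. In sham heterozygous hosts it averaged 5.71 ± 0.41 (n = 6; 5.21, 5.69 and 6.32), with 1 high and 2 low. In irradiated heterozygous hosts it averaged 5.92 ± 0.33 (n = 10; 5.24, 5.92 and 6.39), with 3 high and 1 low. The 4 ranges overlapped widely, and the 2 top tumours, both of irradiated wild-type hosts, gave that group its large spread.

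No difference of the score between hosts passed a permutation test of the difference of means (two-sided, 5 comparisons, Benjamini-Hochberg adjusted). Irradiated minus sham was 0.23 in wild-type hosts (SE 0.20, exact permutation p = 0.32, adjusted 0.799) and 0.20 in heterozygous hosts (SE 0.26, exact permutation p = 0.281, adjusted 0.799). Taken as a difference of medians, the first of these was -0.01. Heterozygous minus wild-type was 0.10 in sham hosts (SE 0.27, exact permutation p = 0.611, adjusted 0.929) and 0.07 in irradiated hosts (SE 0.19, permutation p = 0.75, adjusted 0.929), where the difference of medians was 0.35 (permutation p = 0.0884, adjusted 0.442). The interaction of genotype and irradiation was -0.03 (SE 0.33, permutation p = 0.929, adjusted 0.929). Of the high tumours 10 of 12 came from irradiated hosts against 8 of 12 low tumours (Fisher's exact test, two-sided, p = 0.64), and 4 of 12 against 3 of 12 came from heterozygous hosts (Fisher's exact test, two-sided, p = 1.0). With 16 tumours in each group, 8 against 3 came from heterozygous hosts (odds ratio 4.33, Fisher's exact test, two-sided, p = 0.135). The standard errors rest on 1 SD pooled over all 4 host groups, while each permutation test used only the tumours compared. These misses do not show that the hosts were alike: with pooled standard errors of 0.19 to 0.33, differences of the size seen here were not detectable.

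The same held gene by gene. A linear model in limma over all 12786 genes above a level filter, with Benjamini-Hochberg adjustment, called 0 genes (0.0%) in 4 of the 5 host comparisons, where 887, 505, 676 and 617 genes had an unadjusted p under 0.05. In heterozygous minus wild-type irradiated hosts it called 1 gene (0.00782%), with 716 at an unadjusted p under 0.05. That gene was Dcstamp, which is needed for the fusion of osteoclasts and giant cells, higher by 1.72 (SE 0.31, limma adjusted p = 0.0166), and with the tumour numbers as a block the call was lost. The T-cell, cytotoxic, checkpoint, chemokine, MHC and interferon genes in 10 immune lists gave 0 calls in any of the 5 comparisons, the smallest limma adjusted p being 0.718. Cd8a came nearest of the score genes, with irradiated minus sham 0.28 (SE 0.13) in wild-type hosts. Its limma p was 0.0398 unadjusted and 0.69 adjusted.

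Between the high and low groups, 389 of the 12783 genes above the filter, with Cd3e, Cd3g and Cd8a left out, differed at least 2-fold upwards (3.04%) and 193 at least 2-fold downwards (1.51%). The mean was higher in the high group for 48.2% of these genes. Without the filter the numbers were 438 of 18191 (2.41%) and 196 (1.08%), and the mean was higher for 47.7%. The median difference over all genes was -0.01. Of 12783 genes 5 (0.0391%) were higher in all 12 high tumours than in any low tumour, and 0 (0.0%) were lower without overlap; unfiltered, these were 8 (0.044%) and 0 (0.0%).

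Those 5 genes were Cd3d, Ms4a4b, Nkg7, Gimap3 and H2-Oa. Cd3d encodes a further chain of the receptor complex and lies beside Cd3g on chromosome 9, their starts 1355 bases apart on opposite strands (RefSeq, GRCm38.p6). It measured 5.92 at the lowest, 6.43 at the median and 8.45 at the highest in the high group, against 4.67, 5.37 and 5.76 in the low group, so every T-cell-rich tumour lay above every T-cell-poor one. Ms4a4b, a membrane protein of T cells, had the widest such gap, with 6.52, 7.47 and 9.12 against 4.46, 4.92 and 5.43, a difference of 2.55. Nkg7, a granule protein of natural killer and cytotoxic T cells, measured 5.74, 6.47 and 8.65 against 4.87, 5.26 and 5.66. Gimap3, a GTPase of lymphocytes, measured 6.83, 7.29 and 8.51 against 6.01, 6.24 and 6.57. H2-Oa, a class II gene, separated the groups by very little. It was 5.26 in the lowest high tumour and 5.21 in low irradiated wild-type-host tumour 19, both close to the filter level of 5.14. Its difference of 1.06 was 0.41 without the 2 top-scoring tumours. All of these sit low on the arrays' scale, and Cd2, P2ry10 and Rnase6 joined them when the filter was dropped.

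The genes most like the score over the 48 tumours, by Spearman's rank correlation and as a description, were Cd3d (0.91), Trav9d-3 (0.88), Ms4a4b (0.87), Nkg7 (0.84), Gimap3 (0.79), Cxcr3 (0.78), Rasal3 (0.76), Gzmk (0.76), Lat (0.74) and Cxcl9 (0.74). Trav9d-3 is a variable segment of the T-cell receptor alpha chain, Gzmk a granzyme and Lat an adaptor of receptor signalling. These 10 were picked for their correlation, and other T-cell genes followed the score less closely, with 0.58 for Cd247, 0.51 for Cd4, 0.50 for Ctla4, 0.31 for Foxp3 and -0.07 for Bcl11b. The Trav9d-3 and Igha probe sets are of a kind whose probes can match other members of the same gene family.

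**Figure D2:**
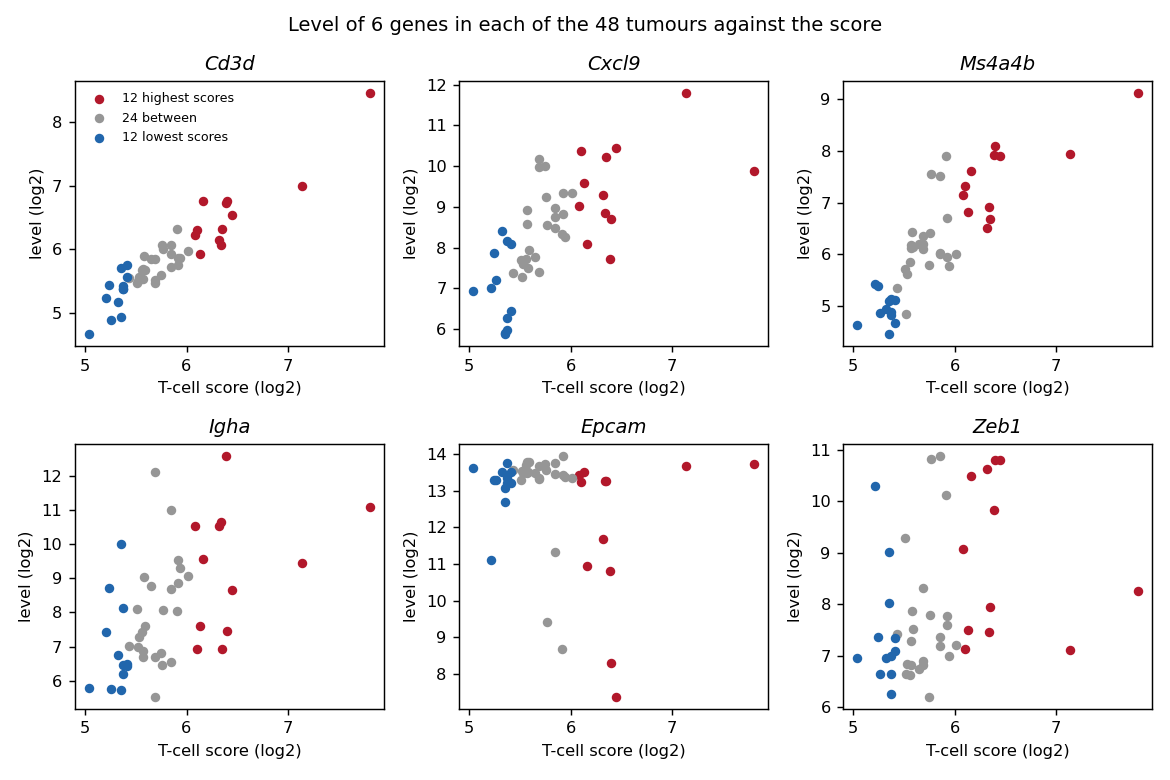
Levels of 6 genes (y axis, log2) against the score (x axis, log2) in each of the 48 tumours, red for the 12 highest, blue for the 12 lowest and grey for the 24 between. Cd3d, Ms4a4b and Cxcl9 climb with the score, while Epcam is near 13 in most tumours and below 12 in 5 high, 1 low and 3 other tumours.

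Genes of the T lineage were higher by a small amount. Of 21 measured, 9 above the filter, 19 were higher in the high group, 3 at least 2-fold (Cd3d, Thy1, Cd8b1), and the median difference was 0.44 against -0.01 over all genes. Cd8b1, the partner chain of Cd8a, measured 5.28 ± 0.67 against 4.24 ± 0.21, and Cd4, the co-receptor of helper T cells, 6.43 ± 0.19 against 6.17 ± 0.28. Zap70, a kinase downstream of the receptor, was 8.34 ± 0.18 and 8.23 ± 0.25. The filter stood at a log2 level of 5.14, and most T-lineage probe sets lay under it. Lck and Tcf7 were not analysed here.

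Cytotoxic genes had a larger median difference. Of 16 measured, 7 above the filter, 15 were higher and 4 were at least 2-fold higher, with a median of 0.77. Gzmb, the granzyme that cuts caspases in target cells, measured 5.43, 7.22 and 10.34 (lowest, median, highest) in the high group and 4.59, 5.12 and 8.03 in the low group, so the groups overlapped. Gzma measured 4.70, 6.50 and 9.49 against 4.31, 5.04 and 5.72, and 9 high tumours exceeded every low one. Klrd1, a natural killer receptor chain, was 5.60 ± 0.91 against 4.09 ± 0.38. Prf1, the pore-forming perforin, was 5.32 ± 0.13 against 5.36 ± 0.27, and Ifng itself was near the bottom of the scale in both groups (3.39 ± 0.25 and 3.16 ± 0.16).

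Genes of the checkpoint list, many of which restrain T cells, were higher in all 9 measured, 4 of them above the filter. None was 2-fold higher, and the median was 0.45. Ido1, an enzyme that depletes tryptophan, differed by 0.91, Havcr2 by 0.74, Cd274, the ligand of PD-1, by 0.58, Ctla4 by 0.45 and Pdcd1 by 0.42. Regulatory T-cell genes had a median of 0.16 over 6 measured, only 3 of them above the filter. Foxp3, their defining factor, measured 3.89 ± 0.20 against 3.74 ± 0.10, under the filter in both groups, and Tnfrsf4, a costimulatory receptor, had the largest difference at 0.58.

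Chemokines and their receptors had the largest median of the T-cell lists. All 14 measured were higher, 8 at least 2-fold, and the median was 1.19. Cxcl9 was 7.72, 9.44 and 11.79 in the high group and 5.88, 6.97 and 8.40 in the low group (difference 2.48), with 10 of 12 high tumours above every low one. Ccl5, a chemokine that draws T cells, was 8.16, 9.45 and 11.51 against 6.10, 7.78 and 9.56. Cxcl10 overlapped more, with 8.47, 9.30 and 11.99 against 5.86, 8.13 and 10.19. The tumours between the groups measured 8.50 ± 0.88 (n = 24) for Cxcl9, and over successive sets of 12 tumours from the top of the score its means were 9.49, 9.02, 7.98 and 7.01. The receptors that match these ligands were measured too: Cxcr3 was 6.47 ± 0.36 against 5.71 ± 0.27, and Cxcr6, the receptor of Cxcl16, 5.84 ± 1.15 against 4.43 ± 0.25.

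Genes of MHC class II had a median of 1.25 over 9 measured, all higher and 7 at least 2-fold. The mean of the list was 8.87 to 11.08 in the high and 7.25 to 8.84 in the low group, which did not overlap. H2-Ab1, a beta chain, measured 11.04, 12.13 and 13.50 against 9.17, 10.60 and 11.63, and H2-Eb1 10.83, 11.85 and 13.12 against 8.73, 10.21 and 11.38. Ciita, which switches class II genes on, was 6.28 ± 0.53 against 5.48 ± 0.39. Class I and its loading machinery were higher in 10 of 10, 2 of them 2-fold, with a median of 0.64. Psmb9, an immunoproteasome subunit, differed by 1.13, Tap1 by 0.89 and H2-K1, a class I heavy chain near the top of the scale, by 0.40. Costimulation and adhesion genes had a median of 0.70 over 11, led by Vcam1 (8.61, 10.90 and 12.25 against 6.95, 7.85 and 10.60).

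Genes induced by interferon gamma were higher in 10 of 10, 4 at least 2-fold, with a median of 0.91. Gbp6, a guanylate-binding GTPase, was 9.92 ± 0.89 against 8.23 ± 1.15 and Igtp, an immunity-related GTPase, 10.97 ± 1.07 against 9.91 ± 1.05. Genes of the type I response were higher in 12 of 12, none 2-fold, with a median of 0.56, and Ifit3 was 9.32 ± 1.23 against 8.63 ± 1.19. These medians depended on Cd3g in the score: without it they were 0.32 for interferon gamma and 0.09 for type I genes, against 0.90 for class II and 0.76 for chemokine genes.

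Promoters of 5 of these genes are shown because they hold matches to motifs of interferon-induced or MHC class II promoters. Of class II motifs only the Y box was searched for, and a match does not show that a protein binds there. The stretches end at the base before the start of the gene (RefSeq, GRCm38.p6) and run 5′ to 3′ on the gene's strand. Capitals mark matches, on either strand, to the core of the interferon-stimulated response element (GAAA, any 2 bases, GAAA), to the gamma-activated site (TTCNNNGAA) and to the Y box of class II promoters (CTGATTGG).
Cxcl9, GRCm38.p6 chr5:92328080-92328199, minus strand: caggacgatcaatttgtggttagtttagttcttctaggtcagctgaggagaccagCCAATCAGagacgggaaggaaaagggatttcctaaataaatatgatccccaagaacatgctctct
Cxcl10, GRCm38.p6 chr5:92348890-92349139, minus strand: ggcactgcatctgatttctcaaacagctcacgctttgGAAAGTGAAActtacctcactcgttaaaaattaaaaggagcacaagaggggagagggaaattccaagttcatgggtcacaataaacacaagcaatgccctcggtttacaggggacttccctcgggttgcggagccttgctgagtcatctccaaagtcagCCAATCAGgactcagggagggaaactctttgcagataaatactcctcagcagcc
Igtp, GRCm38.p6 chr11:58199436-58199555, plus strand: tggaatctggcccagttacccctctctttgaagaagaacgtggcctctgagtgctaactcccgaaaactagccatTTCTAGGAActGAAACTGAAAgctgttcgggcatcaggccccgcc
H2-Aa, GRCm38.p6 chr17:34287824-34287943, minus strand: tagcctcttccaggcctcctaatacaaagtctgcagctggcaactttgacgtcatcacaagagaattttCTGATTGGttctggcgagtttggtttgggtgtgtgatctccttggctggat
H2-Eb1, GRCm38.p6 chr17:34305747-34305866, plus strand: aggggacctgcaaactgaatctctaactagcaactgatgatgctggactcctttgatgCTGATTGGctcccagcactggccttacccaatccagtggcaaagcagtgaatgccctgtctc
Cxcl10 held the response element core 213 bases before its start and Igtp held it 34 bases before, next to a gamma-activated site 45 bases before. The Y box stood 51 bases before the start of H2-Aa and 62 before that of H2-Eb1, and on the opposite strand 65 bases before Cxcl9 and 54 before Cxcl10.

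Over the 250 bases before the start, the response element core occurred in 2.98%, the gamma-activated site in 7.02% and the Y box in 3.83% of 32851 promoters. In the interferon gamma list the response element core occurred in 5 of 8 genes with a promoter in the table (Gbp2, Gbp3, Igtp, Irgm1, Socs1), and in the type I list in 5 of 9. The gamma-activated site occurred in 3 of 8 interferon gamma genes, but also in 3 of 12 T-lineage and 2 of 5 milk genes. The Y box occurred in 3 of 6 class II genes (H2-Aa, H2-Eb1, H2-Oa), in 3 of 8 class I genes (H2-D1, Psmb9, Tap1) in 2 of 7 chemokine genes, and also in 3 of 12 cell-cycle genes. The starts of Tap1 and Psmb9 lie 226 bases apart on opposite strands, so they share 1 stretch and 1 match. Genes entered these lists because they respond to interferon or belong to the MHC, so the matches describe the lists and not the tumours.

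The other immune cells differed too. B-cell and plasma-cell genes were higher in 15 of 15 measured, by 0.00 to 2.13, but only 5 of the 15 lay above the filter. At least 2-fold differences were seen for 5, and the median was 0.58. Ighm, the heavy chain of IgM, was 9.36 ± 1.51 against 7.72 ± 0.85. With the mean of each gene's probe sets in place of the highest, its difference was 0.71 in place of 1.65. Igha, the heavy chain of IgA and not a member of the list, was 6.92, 9.50 and 12.59 against 5.73, 6.47 and 10.01, and exceeded 9 in 7 high, 1 low and 6 of 24 other tumours. It was 10.54 to 12.59 in the 4 high tumours of heterozygous hosts and 6.92 to 11.08 in the 8 of wild-type hosts. Its difference of 2.34 was 1.39 within irradiated wild-type hosts, 6 highest against 6 lowest, and 1.98 with host group as a covariate. Macrophage genes were higher in 13 of 14, none 2-fold, with a median of 0.72 (0.30 for a score without Cd3g), and Csf1r, their growth factor receptor, was 12.00 ± 0.48 against 11.04 ± 0.50. Dendritic-cell genes had a median of 0.50, mast-cell genes 0.37 and neutrophil genes -0.20. The mast-cell median was -0.17 without tumours with Epcam under 12, and the neutrophil median was 0.12 without the 2 top tumours. Of the neutrophil genes, S100a8 was 9.64 ± 1.70 against 10.06 ± 2.13.

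**Figure D3:**
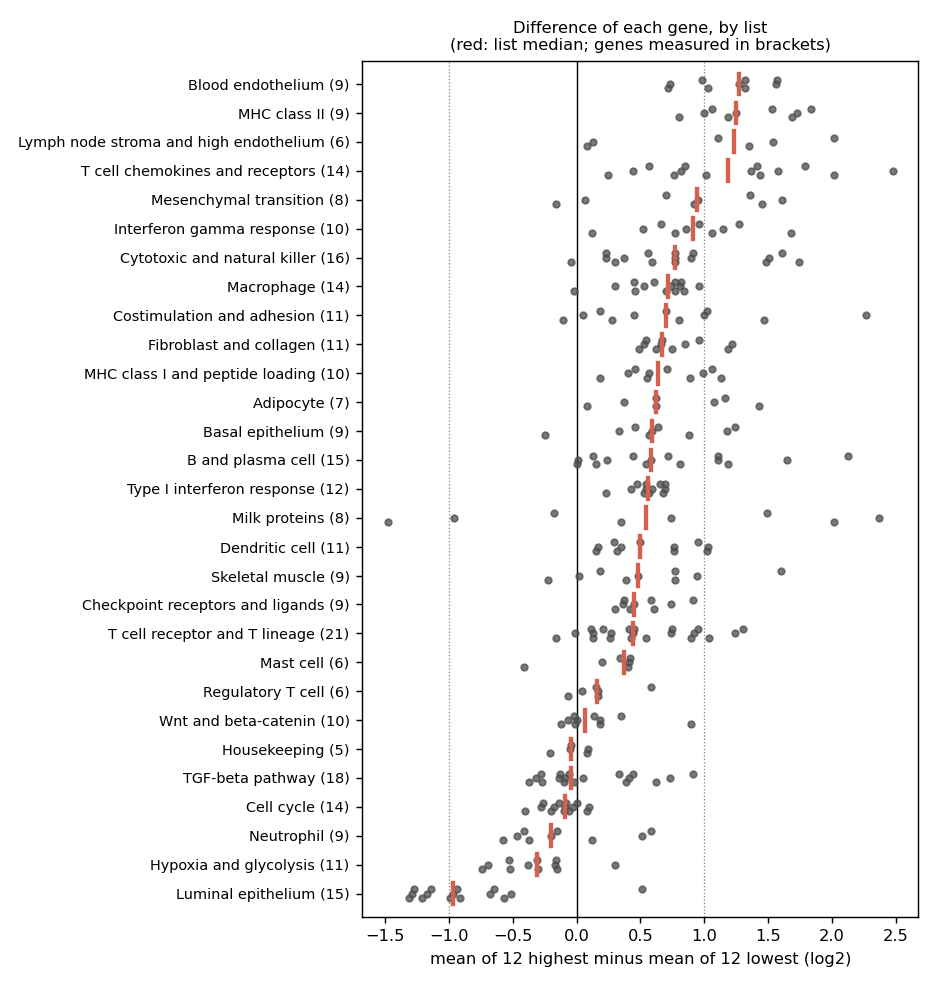
The difference of each measured gene (points; x axis, mean of the 12 highest minus mean of the 12 lowest tumours, log2) by list (y axis, number of genes in brackets), with the list median in red and dotted lines at a 2-fold difference. Medians run from 1.27 for blood endothelium to -0.97 for luminal epithelium, and the housekeeping median is -0.04.

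The T-cell-rich tumours differed among themselves. The 2 with the top scores shared high levels of 4 genes. Cr2, the complement receptor of B cells and follicular dendritic cells, was 10.38 in irradiated wild-type-host tumour 6 and 8.15 in irradiated wild-type-host tumour 16, and at most 4.58 in the other high tumours and 4.15 in the low ones. Spib, a transcription factor of B cells, was 13.54 and 12.52 in the same pair and at most 6.98 in any other high tumour. H2-Oa, a chain of the class II regulator of B cells, was 9.58 and 9.09 there against at most 5.75 elsewhere in the group. Ubd, a ubiquitin-like protein induced by interferon, was 12.76 and 12.33. Cxcl13, which draws B cells into follicles, was 11.58 and 9.50 there, but also 10.91 in irradiated wild-type-host tumour 2 and 9.59 in the low tumour 3 of sham heterozygous hosts. General B-cell genes did not set this pair apart. Ms4a1, which encodes CD20, was 6.21 and 5.54 there, against 7.29 in irradiated heterozygous-host tumour 13 and 6.46 in sham wild-type-host tumour 5. The mean of the B-cell and plasma-cell list was 6.79 and 6.03, against 6.60 and 6.04 in those 2 tumours. Both top tumours had high epithelial RNA, with Epcam at 13.74 and 13.69. Without this pair the difference of Spib was 0.87 in place of 2.14 and that of H2-Oa 0.41 in place of 1.06, while Cd3d kept 1.08 of 1.30 and Cxcl9 2.21 of 2.48; the medians of costimulation (0.40), class I (0.40), type I interferon (0.35) and regulatory T-cell genes (0.05) were smaller by more than 1.5 times.

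Another 5 high tumours held less epithelial RNA. Epcam, a membrane protein of epithelia, was 7.37 in irradiated wild-type-host tumour 23, 8.29 in irradiated wild-type-host tumour 2, 10.80 in irradiated heterozygous-host tumour 13, 10.94 in sham wild-type-host tumour 5 and 11.68 in sham heterozygous-host tumour 2. In the other 7 high tumours it was 13.25 to 13.74. Epcam was under 12 in 1 low tumour (11.10) and in 3 of the 24 between. The same 5 had the highest Zeb1 of the high group, a repressor of epithelial genes, at 9.82 to 10.80.

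Madcam1, an adhesion molecule of gut vessels and lymph node venules, was high in 3 tumours. It was 10.88 in sham wild-type-host tumour 5, 8.24 in irradiated heterozygous-host tumour 12 and 7.29 in irradiated heterozygous-host tumour 13, and at most 6.11 in the other high tumours and 5.20 in the low ones. The first 2 of these also led in the vessel genes, with Cldn5, a tight-junction protein of endothelium, at 13.57 and 12.08. Skeletal-muscle genes had a list mean over 7 in 3 high and 3 low tumours. Of the lymph node list, 6 were measured, 2 of them above the filter, and 4 were at least 2-fold higher, with a median of 1.23. The list mean was 4.53 to 7.35 in the high and 4.08 to 5.34 in the low group. Chst4 was at the bottom of the scale (3.44 ± 0.36 and 3.36 ± 0.08), and Glycam1, which is also secreted into milk, was 8.54 ± 2.92 against 7.00 ± 2.44. The part of lymph node or neighbouring tissue in the differences was not tested.

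**Figure D4:**
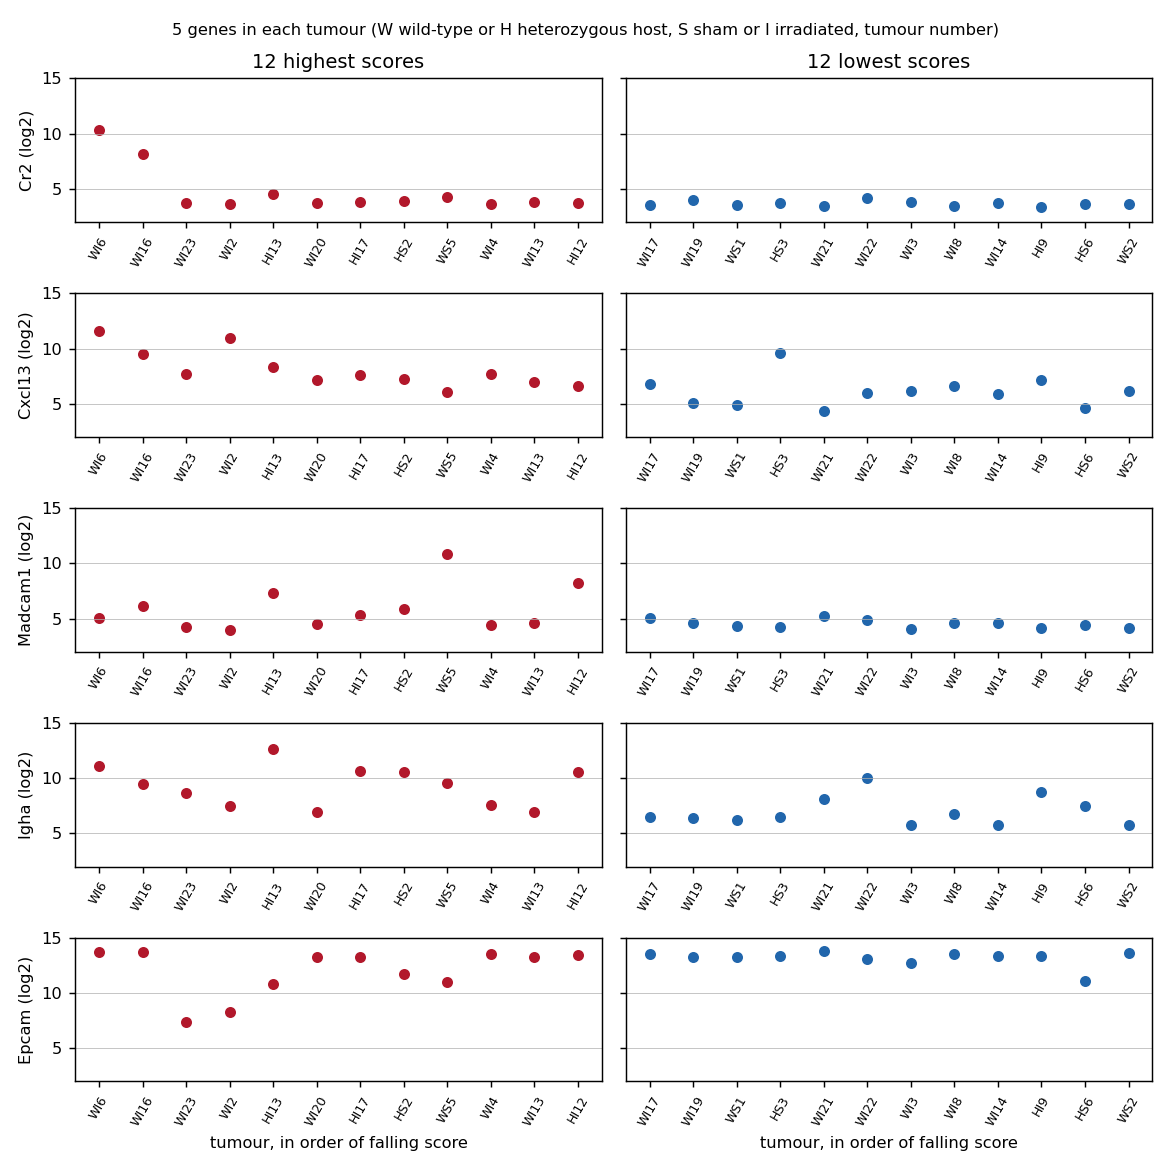
Levels (y axis, log2) of Cr2, Cxcl13, Madcam1, Igha and Epcam in the 12 highest-scoring (left, red) and 12 lowest-scoring tumours (right, blue), in order of falling score along the x axis. High Cr2 is seen in 2 tumours, high Madcam1 in 3 and low Epcam in 5 of the high group.

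Luminal epithelial genes were the clearest group that was lower in T-cell-rich tumours. Of 15 measured, 14 were lower, 6 at least 2-fold, with a median of -0.97. Esrp1, a splicing factor of epithelia, was 9.60 ± 2.31 against 10.90 ± 0.85 and Elf5, a factor of secretory alveolar cells, 9.81 ± 2.15 against 11.10 ± 1.66. The tumours low in Epcam weighed on this. Without tumours with Epcam under 12, which left 7 high and 11 low tumours, the luminal median was 0.12, Epcam differed by 0.12 and Esrp1 by 0.05. The number of genes at least 2-fold lower was then 26, in place of 193 for 12 against 12. Epcam is itself an epithelial gene, so leaving tumours out by its level bears directly on the epithelial values. In the 7 high and 11 low tumours that remained the median was 0.35 for T-lineage, 0.78 for cytotoxic, 1.14 for chemokine and 1.48 for class II genes. There it was 1.38 for interferon gamma and 1.10 for type I interferon genes, while that of B-cell and plasma-cell genes was 0.37.

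Stromal genes were higher. Blood endothelium was higher in 9 of 9, 6 at least 2-fold, with a median of 1.27, fibroblast and collagen genes in 11 of 11 with a median of 0.67, and genes of mesenchymal transition in 7 of 8 with a median of 0.94. Tek, an endothelial receptor, was 5.25, 6.85 and 11.46 against 4.69, 5.62 and 6.84, and Snai2 was 9.66 ± 1.48 against 8.06 ± 1.96. The endothelial list mean was 11.62 in sham wild-type-host tumour 5 and 10.20 in irradiated heterozygous-host tumour 12, against a high-group median of 7.98. With the 8 highest against the 8 lowest tumours the endothelial median was 0.60. Without tumours with Epcam under 12 the endothelial median was 0.64 and the mesenchymal one 0.55, and within the irradiated wild-type hosts alone, 6 highest against 6 lowest, the median was 0.40 for endothelial, 0.03 for lymph node and 0.24 for B-cell and plasma-cell genes. Basal epithelial genes had a median of 0.59, adipocyte genes 0.62, muscle genes 0.48 and milk genes 0.54. Within irradiated wild-type hosts the adipocyte median was -0.02 and that of milk genes -0.28, and with host group as a covariate the muscle median was -0.03. Milk genes split, Csn2 being 12.22 ± 1.53 against 10.20 ± 2.05 and Csn3 12.09 ± 2.26 against 13.58 ± 1.19.

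Cell-cycle and TGF-beta pathway genes had medians near that of all genes. Cell-cycle genes had a median of -0.09 over 14 and Mki67 was 11.12 ± 0.40 against 11.30 ± 0.48. TGF-beta pathway genes had a median of -0.04 over 18, 8 higher and 10 lower. The differences ran from -0.37 for Ltbp3 to 0.73 for Ltbp4 and 0.91 for Ltbp2. Members of this list included Tgfb1 at 8.90 ± 0.84 against 8.51 ± 0.84 and the receptor Tgfbr2 at 11.68 ± 0.52 against 11.27 ± 0.55. Wnt genes had a median of 0.07. Of 11 hypoxia and glycolysis genes, 10 were lower, none 2-fold, with a median of -0.31, and Vegfa was 9.02 ± 0.52 against 9.70 ± 0.60.

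The largest single differences were mixed. Above the filter they were led by Serpinb1a, an inhibitor of granule proteases (4.32, 8.19 and 12.03 against 3.98, 4.44 and 7.02; difference 2.94), Ubd (2.63), Ms4a4b (2.55), Cxcl9 (2.48), S100a4, a calcium-binding protein of motile cells (2.44), and the casein gene Csn1s2a (2.37). Igha (2.34), Vcam1 (2.27), Grem1, a BMP antagonist of stroma (2.24), Serpinb6b (2.22), Dpysl3 (2.21), Spib (2.14), Jchain, the joining chain of IgA and IgM (2.13), Ogn (2.05) and Msln (2.03) completed the 15. Only Ms4a4b among these 15 separated the groups, and Serpinb1a exceeded every low tumour in 8 of 12. At the other end stood Slc6a15, an amino acid transporter (4.10, 6.40 and 9.76 against 8.24, 9.10 and 11.25; difference -2.63), Col9a1 (-2.27), the glutathione peroxidase Gpx2 (-2.05), Chl1 (-2.03), Tpd52l1 (-1.92), Wnk4 (-1.86), Crispld2 (-1.82), Chil1 (-1.80), Snhg14 (-1.76) and Stk26 (-1.75). Slc6a15 was under every low tumour in 8 of 12 high tumours, and without tumours with Epcam under 12 its difference was -1.48 and that of Col9a1 -0.78. Some of these differences depended on the probe set. With the mean of each gene's probe sets that of Ms4a4b was 1.41, of Csn1s2a 1.14 and of Chl1 -0.91, while that of Ubd was 2.80.

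The 24 tumours between the groups, which had no part in choosing these genes, lay mostly in the same order when split by rank into 2 sets of 12. Of the 389 genes at least 2-fold higher, 332 (85.3%) had a higher mean in the 12 tumours ranked 13 to 24 than in those ranked 25 to 36, against 50.3% of all 12783 genes, and 209 were in order over all 4 sets of 12, against 1226 of all 12783. Of the 193 lower genes, 170 (88.1%) were lower in ranks 13 to 24 than in ranks 25 to 36. In order over all 4 sets were 49 of the 193. For these lower genes the shares of all genes in the same direction, over 2 or over 4 sets, were not counted. The 50.3% and the 1226 of 12783 given above are for the opposite direction. The first and last sets chose these genes, which fixed the order of those 2, and the score formed all the sets, so this is a description.

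Measures of array quality overlapped between the groups. Array medians were 5.84 to 5.96 over all tumours, and the median correlation of an array with the others was 0.930 to 0.979. The 3′ minus 5′ difference of Actb control probe sets, which grows as RNA decays, averaged 0.50 in the high and 0.53 in the low group, and that of Gapdh 0.09 and 0.06. Housekeeping genes had a median of -0.04 over 5.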

How the data were processed

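RNA of 48 tumours and 17 glands was hybridised to Affymetrix 3′ arrays of 45101 probe sets, from 100 ng per tumour per the labels' protocols. Tumour values were deposited by the authors as log2 values made with RMA (background correction, normalization across arrays, summary of probes), per the submitters' processing notes. Gland values were deposited as RMA intensity on a linear scale and entered no result. No source used here names the version of RMA. Arrays give no read depth, and their number limits the precision.

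Probe sets with 1 gene (34958; 932 had several and 9211 none) were named from the platform annotation, and 99.4% matched the RefSeq table of GRCm38.p6. Where a gene had several probe sets, the one highest on average over the tumours stood for it, which gave 18194 genes. The level filter was the 40th percentile of the probe sets' tumour means (5.14), which left 12786 genes, or 12783 without the 3 score genes. Counts and medians of lists cover all measured members, since a filter favours those that are high in 1 group.

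Genes were named by rule: the 15 largest and 10 most negative differences, up to 4 extremes of each of 29 lists, a fixed set of T-cell and tumour genes, genes without overlap and the 10 most like the score. Other list members were named for their role, after their values were seen. The members, lists and rules were chosen with earlier results of these data known. In 1 tumour (irradiated wild-type-host tumour 1) the labels conflict over irradiation; its title decided the group, and it lay in neither the high nor the low group. The 25 same-numbered pairs of tumours across host groups correlated from -0.434 to 0.631, 11 of them over 0.1, so numbers were not taken to pair tumours.

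The host fit used limma 3.58.1 in R 4.3.3 (4 group means, 44 residual degrees of freedom, empirical Bayes with trend, adjusted p under 0.05). Permutation tests used Python 3.11.15 with numpy 2.4.6, exact or with 100000 resamples, and scipy 1.17.1. Procedures were tested on simulated data. Alternatives covered the score, group size, filter, normalization, probe sets, host group and single tumours.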

Additional observations from a re-analysis of the deposited data

How the results depend on the processing

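The 10 immune lists kept a positive median in all 169 values computed over 17 alternatives, some of which, such as leaving out tumours with Epcam under 12, those with a skeletal-muscle list mean over 7 or the 2 top scores, and the luminal list mean as a covariate, were chosen after seeing the data. Dropping the filter or leaving out irradiated wild-type-host tumour 1 could not change a list median. The values counted for those alternatives repeat the main ones. Among 323 medians of the other lists 18 changed sign (neutrophil, TGF-beta, mast-cell, adipocyte, milk, muscle, cell-cycle, housekeeping and luminal genes); the median of B-cell and plasma-cell genes was 1.65 with a filter at the 60th percentile, where fewer genes remain, and the cytotoxic list gave no value there. Genes at least 2-fold higher numbered 389, and 243 with the mean of probe sets, 232 for a score without Cd3g, 170 for 16 against 16 tumours, 257 with the filter at the 60th percentile and 254 with the luminal covariate. Genes at least 2-fold lower numbered 193, and 103 for a score without Cd3e, 77 for 16 against 16, 341 within irradiated wild-type hosts (6 against 6), 26 without tumours with Epcam under 12 and 43 with the luminal covariate. Genes higher without overlap numbered 5, and 3 without Cd3e, 1 without Cd3g, 12 for 8 against 8, 2 for 16 against 16, 8 without a filter, 0 at the 60th percentile, 38 within irradiated wild-type hosts, 10 without tumours with Epcam under 12 and 9 without tumours rich in muscle RNA. Genes lower without overlap numbered 0, and 3 for 8 against 8 and 27 within irradiated wild-type hosts, where smaller groups overlap less. Within irradiated wild-type hosts Adipoq (-0.13) and Glycam1 (-0.13) turned, as did smaller differences such as those of Ltf (-0.60), Retn (-0.24), Tgfb1 (-0.10) and Foxa1 (-0.07), and without tumours with Epcam under 12 Epcam (0.12) and Esrp1 (0.05). For the score, the interaction turned to 0.03 with the mean of probe sets and to 0.24 with medians, and irradiated minus sham in wild-type hosts to -0.01 with medians, while heterozygous minus wild-type in irradiated hosts was 0.35 with medians; none passed a test. With a replicate block the score differences were 0.34 for irradiated minus sham in wild-type hosts (exact sign-flip permutation p = 0.301), 0.12 for heterozygous minus wild-type in sham hosts (0.719) and 0.17 in irradiated hosts (0.422); the heterozygous groups share no numbers. In limma, heterozygous minus wild-type irradiated hosts gave 1 gene, 2 without a filter and 0 with the replicate block. The cause of these changes was not tested. T-lineage probe sets near the filter limit what could be seen of that list.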
